A study of Mus musculus with 16 samples.

Results

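The 10 genes described here encode the enzymes that make serine and pass its carbon through folate: 3 of serine synthesis (Phgdh, Psat1 and Psph), 3 of the cytosolic folate branch (Shmt1, Mthfd1 and Aldh1l1) and 4 of the mitochondrial branch (Shmt2, Mthfd1l, Mthfd2 and Aldh1l2). They were chosen by gene symbol, with earlier results of these data known, and all 10 were found among the 46078 gene identifiers of the count table. RNA came from brown adipose tissue (BAT), which burns fuel to make heat, and from inguinal white adipose tissue (WAT), a fat depot under the skin, of wild-type C57BL/6 mice labelled female and 16 weeks old. All mice were bred and weaned at 30 °C, which is warm enough that a mouse spends little on heating itself. Mice of the 5 °C groups left the warm room at 10-12 weeks of age, spent 2 weeks at 18 °C and the last 3 weeks at 5 °C, while the 30 °C groups stayed, and food was withdrawn for 2-3 h before both were killed. Each of the 4 groups (BAT at 30 °C, BAT at 5 °C, WAT at 30 °C and WAT at 5 °C) has 4 libraries, and the labels do not say whether each came from a separate mouse, so p-values measure the spread between libraries, which may be technical.

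Serine synthesis branches off glycolysis. Phgdh, phosphoglycerate dehydrogenase, takes the first and committed step, Psat1 transfers an amino group to the product, and Psph removes the phosphate to release serine. The serine hydroxymethyltransferases Shmt1 (cytosol) and Shmt2 (mitochondria) then split serine into glycine and a carbon unit carried on tetrahydrofolate. In the cytosol the multifunctional enzyme Mthfd1 interconverts the folate-bound units used for purines, thymidylate and methyl groups, and Aldh1l1 oxidises formyl-folate to carbon dioxide with production of NADPH. In mitochondria Mthfd2 oxidises the unit, Mthfd1l releases it as formate for export, and Aldh1l2 is the counterpart of Aldh1l1. Mthfd2, Shmt2, Phgdh and Psat1 are known targets of the amino acid stress factor ATF4.

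The libraries held 54264023 to 71289020 counts. Replicate 1 of WAT at 5 °C stood apart from the other 15 libraries: it had 3 counts of Xist, the RNA of the inactive X chromosome, against 11136 to 88934 elsewhere, and 17183 counts summed over 4 Y-linked genes against at most 45, although it is labelled female. Its 15 mammary epithelium markers summed to 17.0 CPM (CPM, the count of a gene relative to the library's total after TMM scaling between libraries) against 1329 to 1405 in the other 3 libraries of its group, its 12 skeletal muscle markers to 6291 against 21.6 to 232 (117.8 to 8925 in WAT at 30 °C), and its 6 general adipocyte markers to 16830 against 4482 to 6637. Results that include WAT at 5 °C are therefore given with and without this library, and its part in them beyond that was not tested. In 4 of the 8 BAT libraries (replicates 3 and 4 at 30 °C, replicates 1 and 2 at 5 °C) a source label names the opposite temperature to the title and housing labels, which set the groups here. The BAT tissue label names an inguinal depot, but the sum of 8 brown adipocyte markers lay between 2743 and 4876 CPM in BAT and between 13.5 and 33.1 CPM in WAT, both at 30 °C.

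The first question was what the change of housing temperature did to these genes in BAT. At 5 °C, 2 of the 10 rose (Psph and Aldh1l1) and 5 fell (Phgdh, Aldh1l2, Psat1, Shmt1 and Shmt2), while Mthfd1, Mthfd2 and Mthfd1l did not pass the test. All calls are edgeR quasi-likelihood tests with Benjamini-Hochberg adjustment over all genes tested, at 0.05. Over all 16213 genes tested in BAT, 29.2% were called higher and 30.3% lower, so 2 of 10 higher is below that background and 5 of 10 lower above it. The 10 genes were chosen with earlier results of these data known, so these counts only describe them. How many of all genes had groups without overlap was not counted. A lack of overlap in gene levels, within BAT or between tissues, is therefore a description only. In bulk tissue, fewer cells of a type and less RNA per cell cannot be told apart.

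**Figure D1:**
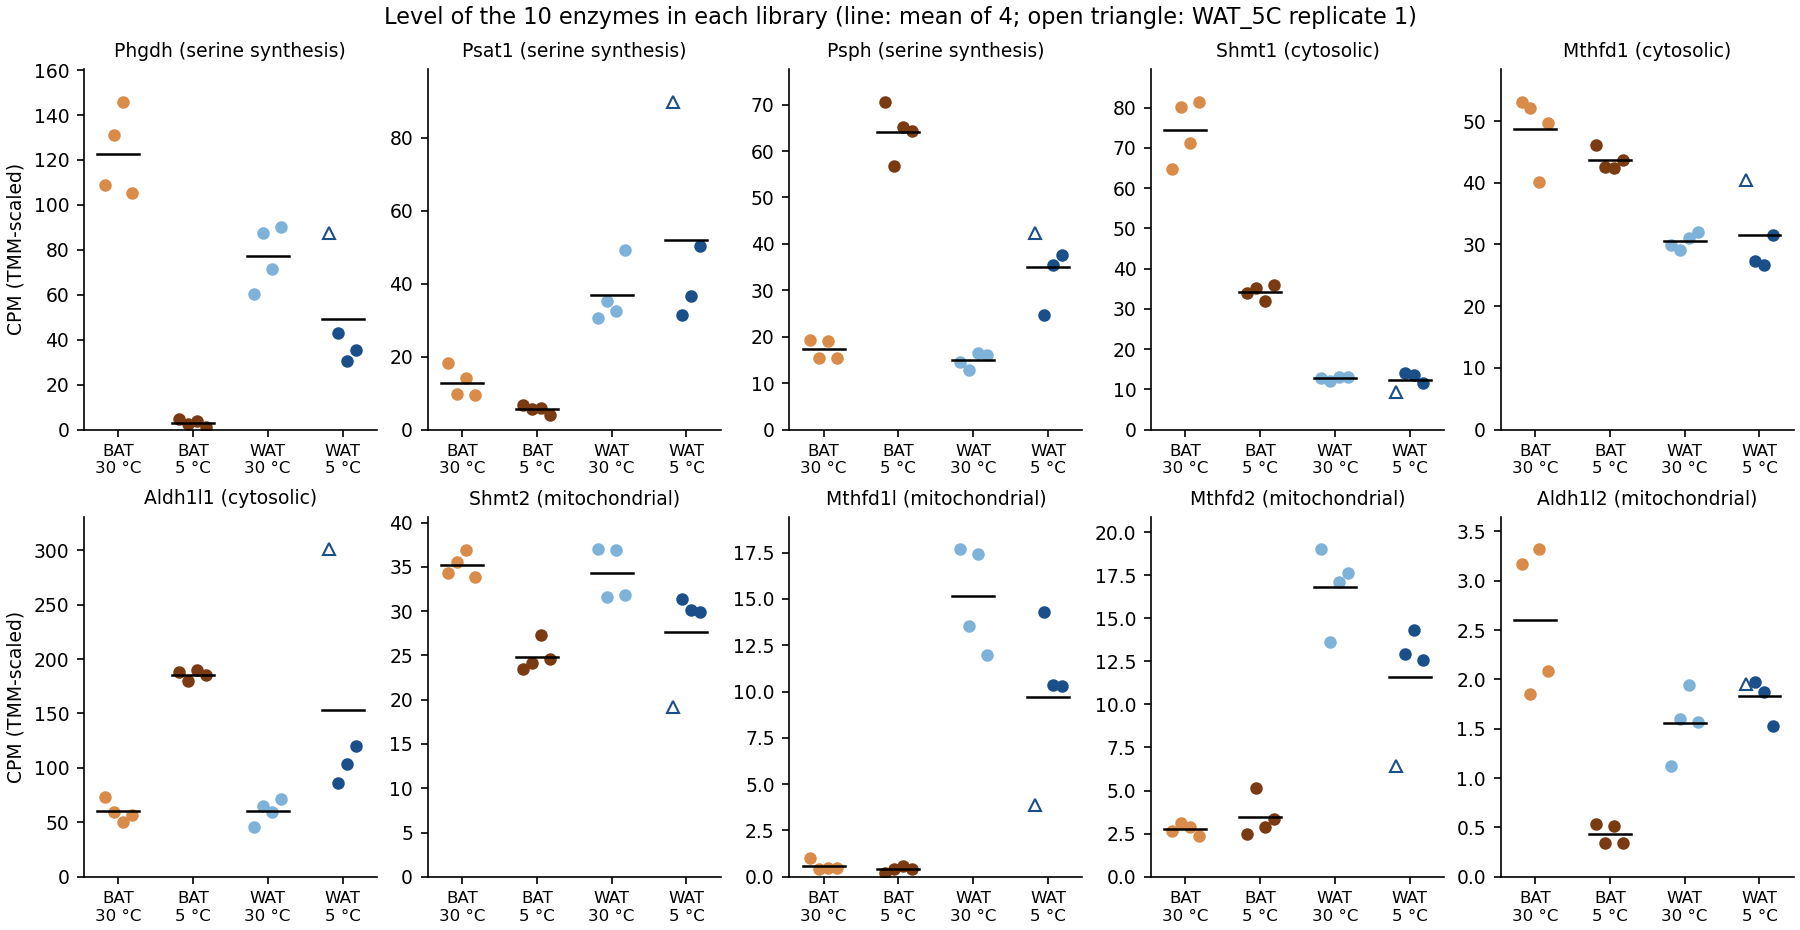
Level of each of the 10 enzymes in every library, as TMM-scaled CPM on a linear axis that starts at 0 for each gene. Points are libraries, lines are means of 4, and the open triangle is replicate 1 of WAT at 5 °C. Phgdh in BAT falls from a mean of 123 to 3.03 CPM, Mthfd1l and Mthfd2 are low in all 8 BAT libraries, and the triangle lies outside the other 3 libraries for every gene except Aldh1l2.

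Phgdh, the committing enzyme of serine synthesis, was at 109, 131, 146 and 105 CPM in the 4 libraries of BAT at 30 °C and at 4.72, 2.47, 3.68 and 1.24 CPM at 5 °C. Each cold library was below every warm one, and the mean was 40.6-fold lower. The fitted log2 fold change was -5.35 (SE 0.33, edgeR adjusted p = 1.10e-06), the largest among the 10. Of the 50-base windows of annotated Phgdh transcripts, 47.78% also occur in other annotated genes, so its counts depend on how the counting, which is not stated, treated reads that match several places. Among those genes the pseudogene Gm7901 was listed with 13 to 26 counts in BAT at 30 °C and 0 to 2 at 5 °C, and Phgdh itself with 4834 to 7202 and 50 to 167.

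Psat1, the aminotransferase of the pathway, was at 18.3, 9.69, 14.0 and 9.54 CPM in BAT at 30 °C and at 6.73, 5.57, 5.96 and 4.03 CPM at 5 °C. The groups did not overlap, and the log2 fold change was -1.21 (SE 0.23, edgeR adjusted p = 0.00153).

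Psph, the phosphatase that completes the pathway, went the other way. It was at 19.3, 15.4, 19.0 and 15.5 CPM in BAT at 30 °C and at 70.6, 56.7, 65.1 and 64.2 CPM at 5 °C, a 3.71-fold higher mean with no overlap. The log2 fold change was 1.89 (SE 0.10, edgeR adjusted p = 5.03e-07). The chaperonin subunit gene Cct6a lies on the opposite strand over 10.44% of the Psph exon bases, and since the strand setting of the counting is not stated, reads of that stretch cannot be told apart. Cct6a itself was at 127 CPM at 30 °C and 145 CPM at 5 °C (log2 fold change 0.19, edgeR adjusted p = 0.0813).

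The 3 enzymes of serine synthesis therefore did not move together in BAT. As a description, the count of Phgdh over that of Psph was 5.65 to 8.48 in the 4 warm libraries and 0.0194 to 0.0671 in the 4 cold ones, and Phgdh over Psat1 was 5.94 to 13.5 and 0.309 to 0.702. Their summed level per kilobase of exon was 56.4 ± 7.90 CPM per kilobase at 30 °C and 17.3 ± 1.93 at 5 °C (SD, n = 4), with Psph making up most of the cold sum (14.8 ± 1.32).

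Promoter sequence was available for 9 of the 10 genes, with a second start site for Psat1, in a RefSeq table on build GRCm38.p6. Aldh1l2 was not in it. The 250 bases before the annotated start are shown for Phgdh and Psat1, which fell together in BAT at 5 °C, and for Aldh1l1, which rose. They are written 5′ to 3′ on the gene's strand, with CCAAT boxes (CCAAT or its reverse complement) and GC boxes (GGGCGG or its reverse complement) in capitals.
Phgdh, chr3:98339970-98340219, minus strand: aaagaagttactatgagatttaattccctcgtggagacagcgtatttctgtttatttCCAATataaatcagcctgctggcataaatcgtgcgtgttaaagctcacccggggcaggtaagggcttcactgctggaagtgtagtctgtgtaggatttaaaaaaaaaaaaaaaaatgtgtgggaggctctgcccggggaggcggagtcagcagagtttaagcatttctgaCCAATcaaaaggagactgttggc
Psat1 first start site, chr19:15925060-15925309, minus strand: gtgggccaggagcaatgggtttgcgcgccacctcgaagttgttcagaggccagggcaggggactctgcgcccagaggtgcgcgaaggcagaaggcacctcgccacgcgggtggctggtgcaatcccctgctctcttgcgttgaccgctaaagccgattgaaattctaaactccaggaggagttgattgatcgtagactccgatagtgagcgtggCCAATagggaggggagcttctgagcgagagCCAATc
Aldh1l1, chr6:90550543-90550792, plus strand: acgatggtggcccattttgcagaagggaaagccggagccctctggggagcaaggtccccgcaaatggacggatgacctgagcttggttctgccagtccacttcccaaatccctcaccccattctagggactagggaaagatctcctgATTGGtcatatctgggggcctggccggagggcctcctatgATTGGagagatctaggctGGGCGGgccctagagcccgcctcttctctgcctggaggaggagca
The Phgdh window holds 2 CCAAT boxes, the nearer beginning 23 bases before the start, and no GC box. The Aldh1l1 window holds 2 CCAAT boxes and 1 GC box. In the full windows of 250 bases before to 50 after the start, searched on both strands, CCAAT was found in 7 of the 9 genes against 37.4% of all 32851 promoters in the table, and GGGCGG in 6 of the 9 against 35.7%. The letters TGATGNAA, a form of the composite element bound by ATF4 with C/EBP proteins, were in none of the 9 (3.97% of all promoters), and the E-box CACGTG was in none (7.15%). These are matches of letters only. The members are counted by gene and the shares by promoter, and Psat1 has GGGCGG only at its second start site, not shown. Of the genes called in BAT, CCAAT was in Psph and Aldh1l1, which rose, and in Phgdh, Psat1 and Shmt1, which fell. It was not in Shmt2, which also fell.

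In the cytosolic branch of BAT, the genes differed in direction. Shmt1 was at 64.8, 80.2, 71.1 and 81.4 CPM at 30 °C and at 33.8, 35.2, 31.9 and 36.0 CPM at 5 °C. The groups did not overlap, and Shmt1 fell by 1.12 on the log2 scale (SE 0.083, edgeR adjusted p = 3.31e-06). Aldh1l1, the formyl-folate dehydrogenase, was at 73.6, 59.4, 49.9 and 57.2 CPM at 30 °C and at 188, 180, 190 and 185 CPM at 5 °C, again without overlap. It rose by 1.63 on the log2 scale (SE 0.11, edgeR adjusted p = 1.38e-06) and became the most abundant of the 10 per kilobase. Mthfd1, at 48.7 ± 5.92 CPM at 30 °C and 43.6 ± 1.72 at 5 °C (SD, n = 4), had overlapping groups and a log2 fold change of -0.16 (SE 0.089, edgeR adjusted p = 0.151). Without replicate 3 of BAT at 30 °C, its lowest library at 40.1 CPM, the Mthfd1 difference passed at -0.22 (edgeR adjusted p = 0.00991).

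In the mitochondrial branch of BAT, 2 genes fell and none rose. Shmt2 was at 34.4, 35.6, 36.9 and 33.9 CPM at 30 °C and at 23.5, 24.2, 27.3 and 24.6 CPM at 5 °C, without overlap and with a log2 fold change of -0.50 (SE 0.062, edgeR adjusted p = 8.88e-05). Aldh1l2 was at 3.17, 1.85, 3.32 and 2.09 CPM at 30 °C and at 0.538, 0.342, 0.518 and 0.346 CPM at 5 °C, which rests on 96 to 172 and 14 to 22 counts. It did not overlap either and fell by 2.58 on the log2 scale (SE 0.28, edgeR adjusted p = 4.15e-05). An opposite-strand gene, D10Wsu102e, covers 14.07% of the Aldh1l2 exon bases and was at 21.8 CPM at 30 °C and 18.7 at 5 °C.

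Mthfd2 and Mthfd1l were low in BAT. Mthfd2 was at 2.77 ± 0.335 CPM at 30 °C and 3.46 ± 1.17 at 5 °C (SD, n = 4), with a log2 fold change of 0.33 (SE 0.23, edgeR adjusted p = 0.249) that turned to -0.046 when libraries were scaled by their totals. Mthfd1l was at 0.606 ± 0.273 and 0.410 ± 0.161 CPM, or 22 to 55 and 7 to 25 counts, with a log2 fold change of -0.55 (SE 0.39, edgeR adjusted p = 0.253). At this depth no difference was detectable for Mthfd1l.

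The 7 calls in BAT passed again in each of the 8 fits that left out a library and in the 4 libraries whose labels all match (replicates 1 and 2 at 30 °C, 3 and 4 at 5 °C), where the log2 fold change of Phgdh was -5.61 (edgeR adjusted p = 0.00172) and that of Psat1 -1.49 (edgeR adjusted p = 0.0265). Library totals in place of TMM moved the median of all genes from -0.05 to -0.43, kept the 7 calls and added Mthfd1 as lower (-0.54, edgeR adjusted p = 0.000594). Of all 16213 genes, 2323 were then called higher and 8831 lower. The reading of the member counts against the background given above therefore applies to TMM scaling only. Several marker lists differed with temperature in BAT as well, read beside the 29.2% of all genes called higher and 30.3% called lower. Of 12 markers of dividing cells 10 were lower, and their sum was 79.1-86.6 CPM at 30 °C and 49.7-56.0 CPM at 5 °C. Of 14 T and NK cell markers 9 were lower (sums of 10.4-14.6 and 3.48-8.01 CPM), and of 8 fibroblast and progenitor markers 5 were lower (1278-1539 and 824-1254 CPM). Of 8 brown adipocyte markers 6 were higher (2743-4876 and 17574-19174 CPM). Their part in the differences of the 10 genes was not tested.

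The same question was asked of WAT. Over all 8 libraries none of the 10 genes passed the edgeR test, where 0.0632% of the 18975 genes tested were called higher and 0% lower. At an unadjusted p under 0.05, 3 of the 10 differed, and DESeq2 called 2 higher (Psph and Aldh1l1) and 0 lower. Over all genes, 3430 had an unadjusted p under 0.05 and DESeq2 called 1122. Without replicate 1 of WAT at 5 °C, Psph rose and Phgdh fell, against a background of 1.84% of genes called higher and 0.274% lower.

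**Figure D2:**
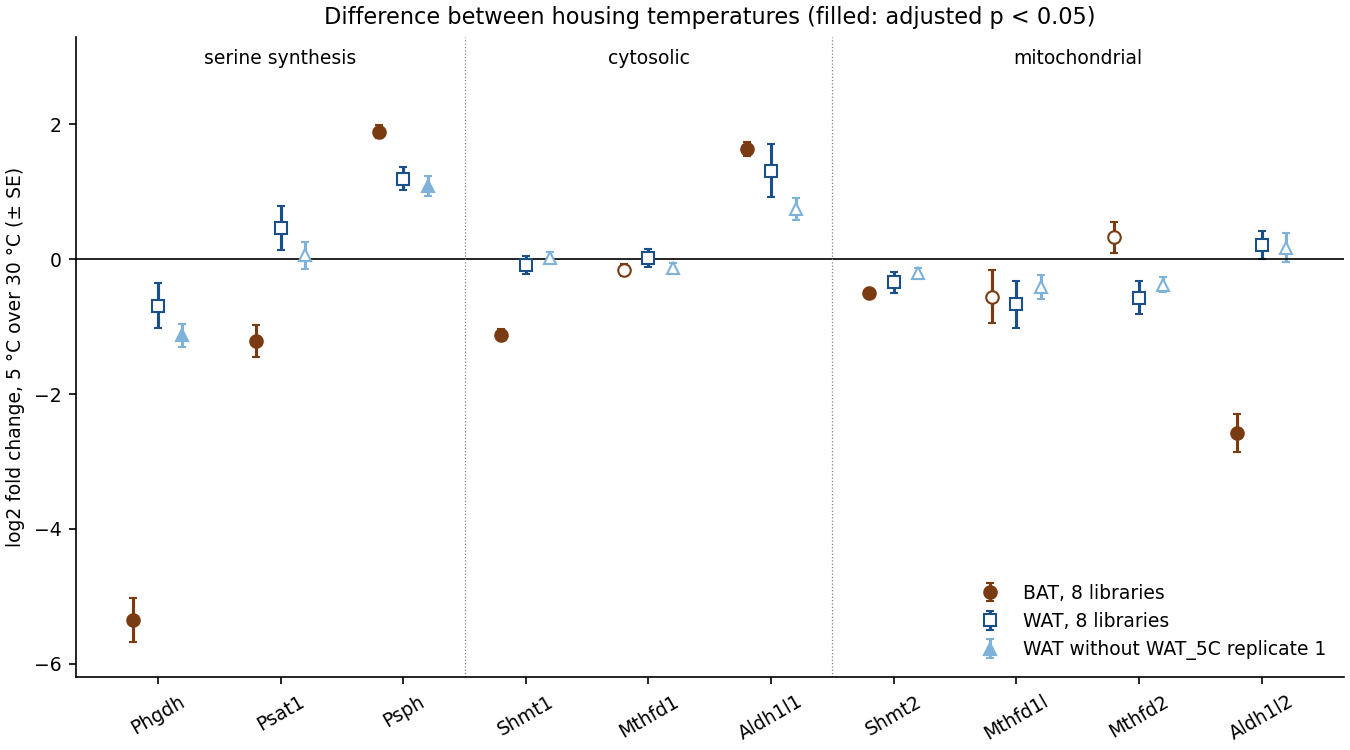
Log2 fold change between 5 °C and 30 °C for each enzyme, with SE bars, in BAT, in WAT with all 8 libraries and in WAT without replicate 1 of the 5 °C group. Filled symbols passed an adjusted p of 0.05: 7 genes in BAT, none in WAT with 8 libraries, and Phgdh and Psph in WAT with 7.

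Phgdh in WAT was at 60.5, 87.3, 71.6 and 90.1 CPM at 30 °C. At 5 °C it was at 87.3 CPM in replicate 1 and at 43.0, 30.6 and 35.2 CPM in the others, so only replicate 1 overlapped the warm libraries. The log2 fold change was -0.69 (SE 0.33, edgeR adjusted p = 0.299) with all 8 libraries and -1.13 (SE 0.17, edgeR adjusted p = 0.0248) without replicate 1. Psph was at 14.5, 12.7, 16.4 and 16.1 CPM at 30 °C and at 42.4, 24.6, 35.5 and 37.5 CPM at 5 °C. All 4 cold libraries were above the warm ones, and the log2 fold change was 1.197 (SE 0.17, edgeR adjusted p = 0.0639) with 8 libraries and 1.09 (SE 0.15, edgeR adjusted p = 0.0201) without replicate 1. Psph also passed without replicate 2 of WAT at 5 °C, its lowest cold library, at 1.33 (edgeR adjusted p = 0.0102), and over the left-out libraries its adjusted p ran from 0.0102 to 0.256. Cct6a, on the other strand of Psph, had a log2 fold change of 0.07 (edgeR adjusted p = 0.733) with 8 libraries and 0.01 (edgeR adjusted p = 0.961) without replicate 1. Psat1 was at 30.7 to 49.1 CPM at 30 °C and at 89.9 CPM in replicate 1 and 31.4, 36.6 and 50.2 CPM in the others at 5 °C. Its log2 fold change was 0.47 (edgeR adjusted p = 0.432), or 0.06 without replicate 1.

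Of the folate genes in WAT, Aldh1l1 stood at 45.4, 65.1, 59.1 and 71.1 CPM at 30 °C and at 301, 86.1, 104 and 120 CPM at 5 °C, with every cold library above every warm one. The log2 fold change was 1.31 (SE 0.39, edgeR adjusted p = 0.199), and 0.75 (SE 0.16, edgeR adjusted p = 0.0623) without replicate 1, which held the 301 CPM. Shmt2 was at 31.6 to 37.0 CPM at 30 °C and at 19.2, 31.3, 30.1 and 29.9 CPM at 5 °C, also without overlap, with log2 fold changes of -0.34 (edgeR adjusted p = 0.292) and, without replicate 1, -0.21 (edgeR adjusted p = 0.177). How many of all genes had groups without overlap in WAT was not counted. The lack of overlap for Psph, Aldh1l1 and Shmt2 in WAT is therefore a description only. Mthfd2 had a log2 fold change of -0.57 (SE 0.24, edgeR adjusted p = 0.273) and Mthfd1l one of -0.67 (SE 0.35, edgeR adjusted p = 0.327), with replicate 1 the lowest library for both at 6.45 and 3.89 CPM. Without it the values were -0.37 (edgeR adjusted p = 0.116) and -0.41 (edgeR adjusted p = 0.223). Shmt1 at -0.09, Mthfd1 at 0.02 and Aldh1l2 at 0.21 (edgeR adjusted p = 0.747, 0.943 and 0.588) were the closest to no difference, and the first 2 changed sign without replicate 1, to 0.02 and -0.13, with Aldh1l2 at 0.17.

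Whether the cold response differed between the tissues was tested in 1 fit of all 16 libraries, as the change in WAT minus the change in BAT. It was higher in WAT for 4 genes and lower for 1, against 12.5% and 8.34% of the 19481 genes tested, with a median over all genes of 0.12. The 4 were Phgdh at 4.69 (SE 0.51, edgeR adjusted p = 2.92e-05), Aldh1l2 at 2.81 (SE 0.35, edgeR adjusted p = 8.83e-05), Psat1 at 1.71 (SE 0.43, edgeR adjusted p = 0.0117) and Shmt1 at 1.06 (SE 0.16, edgeR adjusted p = 0.000297). Psph was the gene below, at -0.66 (SE 0.20, edgeR adjusted p = 0.0307).

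The Psph difference missed the threshold when any of 7 libraries was left out (replicates 2 and 4 of BAT at 30 °C, 1, 3 and 4 of BAT at 5 °C, 3 and 4 of WAT at 30 °C), with edgeR adjusted p from 0.0552 to 0.0665, and passed at -0.82 (edgeR adjusted p = 0.0043) without replicate 1 of WAT at 5 °C. Without that library 5 genes were higher and 2 lower, against 15.6% and 15.7% of all genes. Phgdh was then at 4.21, Aldh1l2 at 2.74, Psat1 at 1.26 and Shmt1 at 1.12. Those added were Shmt2 at 0.28 (edgeR adjusted p = 0.0435) and Aldh1l1 at -0.89 (edgeR adjusted p = 0.0038).

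The next question was how the tissues differed at each temperature. Between tissues the scaling matters more than for temperature, because library totals in place of TMM moved the median log2 difference of all genes at 30 °C from -0.03 to -0.88, and the one at 5 °C from -0.19 to -1.12. At 30 °C, Shmt1, Aldh1l2 and Mthfd1 were higher in BAT than in WAT, and Mthfd1l, Mthfd2 and Psat1 lower, against 34.5% and 35.3% of all genes, so neither count is above the background. Shmt1 was higher (log2 difference 2.55, SE 0.12, edgeR adjusted p = 1.36e-09) and Psat1 (-1.52), Mthfd2 (-2.60) and Mthfd1l (-4.64) lower under both scalings. Mthfd1 (0.68) and Aldh1l2 (0.74) were not, and changed sign with library totals, to -0.17 and -0.089.

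The mitochondrial formate-releasing enzyme Mthfd1l gave the widest gap between the tissues at 30 °C. It was at 1.01, 0.444, 0.486 and 0.478 CPM in BAT and at 17.7, 13.5, 17.4 and 12.0 CPM in WAT at 30 °C, a 25.0-fold lower mean in BAT (SE of the log2 difference 0.42, edgeR adjusted p = 2.19e-07). Mthfd2, the enzyme before it, was at 2.64, 3.14, 2.91 and 2.37 CPM in BAT and at 19.0, 13.6, 17.1 and 17.6 CPM in WAT, a 6.08-fold lower mean (SE 0.26, edgeR adjusted p = 5.25e-07). Neither gene had overlapping groups, which is a description only, as the share of all genes without overlap was not counted. Other cell types differed between the tissues along with them: at 30 °C the mammary epithelium markers summed to 0.526 to 22.6 CPM in BAT and 939 to 1461 in WAT with 1 of 15 at 0 counts in BAT, the T and NK cell markers to 10.4 to 14.6 and 653 to 951, the 10 macrophage markers to 275 to 343 and 1071 to 1410, and the dividing cell markers to 79.1 to 86.6 and 166 to 195. Their part in the tissue difference was not tested. In replicate 1 of WAT at 5 °C, the library that goes against its label, Mthfd1l was at 3.89 and Mthfd2 at 6.45 CPM. There the mammary markers summed to 17.0 CPM, within their range in BAT at 30 °C. The T and NK cell markers summed to 141, the macrophage markers to 913 and the dividing cell markers to 93.3. Each of these sums was above its range in BAT at 30 °C. The fibroblast and progenitor markers summed to 4644, against 4403 to 5549 in its whole group and 1278 to 1539 in BAT at 30 °C. This is 1 library, and no link between markers and enzymes was tested.

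At 5 °C, 3 genes were higher in BAT than in WAT and 5 lower, against 31.8% and 40.5% of all genes. Phgdh, not different at 30 °C by the test (0.67, SE 0.34, edgeR adjusted p = 0.0939; 0.60 and 0.0411 without replicate 1 of WAT at 5 °C), was lower in cold BAT, with a log2 difference of -4.02 (SE 0.39, edgeR adjusted p = 4.32e-07). Psat1 (-3.22), Mthfd1l (-4.55), Mthfd2 (-1.74) and Aldh1l2 (-2.07) were also lower and Shmt1 (1.49) higher, and these 6 genes kept their direction with library totals. Psph (0.87) and Mthfd1 (0.47) were higher under TMM and turned to -0.032 and -0.44 with library totals. Without replicate 1 of WAT at 5 °C, 4 genes were higher and 6 lower, against 34% and 42.2% of all genes, with Aldh1l1 at 0.83 (edgeR adjusted p = 0.000134) and Shmt2 at -0.31 (edgeR adjusted p = 0.00135) added. The log2 differences of the others were then -3.61 for Phgdh, -2.84 for Psat1, -4.82 for Mthfd1l, -1.95 for Mthfd2, -2.06 for Aldh1l2, 1.37 for Shmt1, 0.97 for Psph and 0.60 for Mthfd1.

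Levels of different genes were compared per kilobase of annotated exon. In BAT at 30 °C, Phgdh led at 49.3 ± 7.71 CPM per kilobase (SD, n = 4), followed by Shmt1 at 19.2 ± 2.02, Aldh1l1 at 13.3 ± 2.20, Shmt2 at 11.3 ± 0.431 and Mthfd1 at 10.97 ± 1.33. Psph (3.99 ± 0.489), Psat1 (3.03 ± 0.981), Mthfd2 (0.793 ± 0.0962), Aldh1l2 (0.347 ± 0.0995) and Mthfd1l (0.137 ± 0.0616) came last. Aldh1l1 and Shmt2 differed by less than the larger SD of the pair, as did Shmt2 and Mthfd1, and Psph and Psat1. Within each library, though, Psph was above Psat1, with Psat1 over Psph at 0.628 to 0.968 per kilobase. In BAT at 5 °C, Aldh1l1 led at 41.1 ± 0.938 CPM per kilobase and Psph followed at 14.8 ± 1.32. Mthfd1, Shmt1 and Shmt2 lay at 9.82 ± 0.388, 8.82 ± 0.457 and 8.003 ± 0.544, and Psat1, Phgdh and Mthfd2, at 1.31 ± 0.267, 1.22 ± 0.607 and 0.993 ± 0.337, did not differ beyond their spread. Aldh1l2 and Mthfd1l were under 0.1 CPM per kilobase.

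In WAT at 30 °C, Phgdh again led, at 31.1 ± 5.58 CPM per kilobase, before Aldh1l1 (13.3 ± 2.44), Shmt2 (11.05 ± 0.979), Psat1 (8.67 ± 1.97), Mthfd1 (6.86 ± 0.290) and Mthfd2 (4.83 ± 0.653). Aldh1l1 and Shmt2 differed by less than the larger SD of the pair, as did Psat1 and Mthfd1. Psph (3.45 ± 0.393), Mthfd1l (3.42 ± 0.644) and Shmt1 (3.27 ± 0.124) did not differ beyond their spread, and Aldh1l2 was last at 0.207 ± 0.0446. In WAT at 5 °C, Aldh1l1 was first and Phgdh second, at 33.8 ± 22.1 and 19.7 ± 10.5 CPM per kilobase over 4 libraries and 22.9 ± 3.81 and 14.6 ± 2.52 over the 3 without replicate 1. With the longest coding transcript as the length, an alternative chosen after the data were seen, Phgdh stayed first in both 30 °C groups and Aldh1l1 in both 5 °C groups. Psph moved away from its neighbours with that length. It was then at 8.63 CPM per kilobase in WAT at 30 °C, against 4.44 for Shmt1 and 4.11 for Mthfd1l. In BAT it was at 9.98 against 4.93 for Psat1 at 30 °C, and at 37.0 against 44.5 for Aldh1l1 at 5 °C.

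The last question was the balance between the mitochondrial and cytosolic branches. For each of 4 pairs of enzymes the ratio of counts was taken within each library, which does not depend on scaling between libraries, and groups were compared on the log2 scale by an exact two-sided permutation test. With 4 against 4 libraries the smallest p it can give is 0.0286, which 9 of the 16 comparisons reached, and after Benjamini-Hochberg adjustment over the 16 that became 0.0508, so none passed 0.05. Per kilobase, Shmt2 over Shmt1 was 0.662, 0.554, 0.648 and 0.520 in BAT at 30 °C and 3.64, 3.29, 3.52 and 3.07 in WAT at 30 °C. The 2 groups did not overlap, and the ratio was 5.69-fold lower in BAT (exact permutation p = 0.0286). In BAT at 5 °C it was 0.867, 0.857, 1.07 and 0.853, above all 4 warm BAT libraries, 1.53-fold higher than at 30 °C and 3.10-fold lower than in WAT at 5 °C, where it was 2.55 to 3.21 (3.20-fold and 2.76 to 3.21 without replicate 1). Shmt1 was thus the more abundant of the pair per kilobase in 7 of 8 BAT libraries, and Shmt2 in all 8 WAT libraries.

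**Figure D3:**
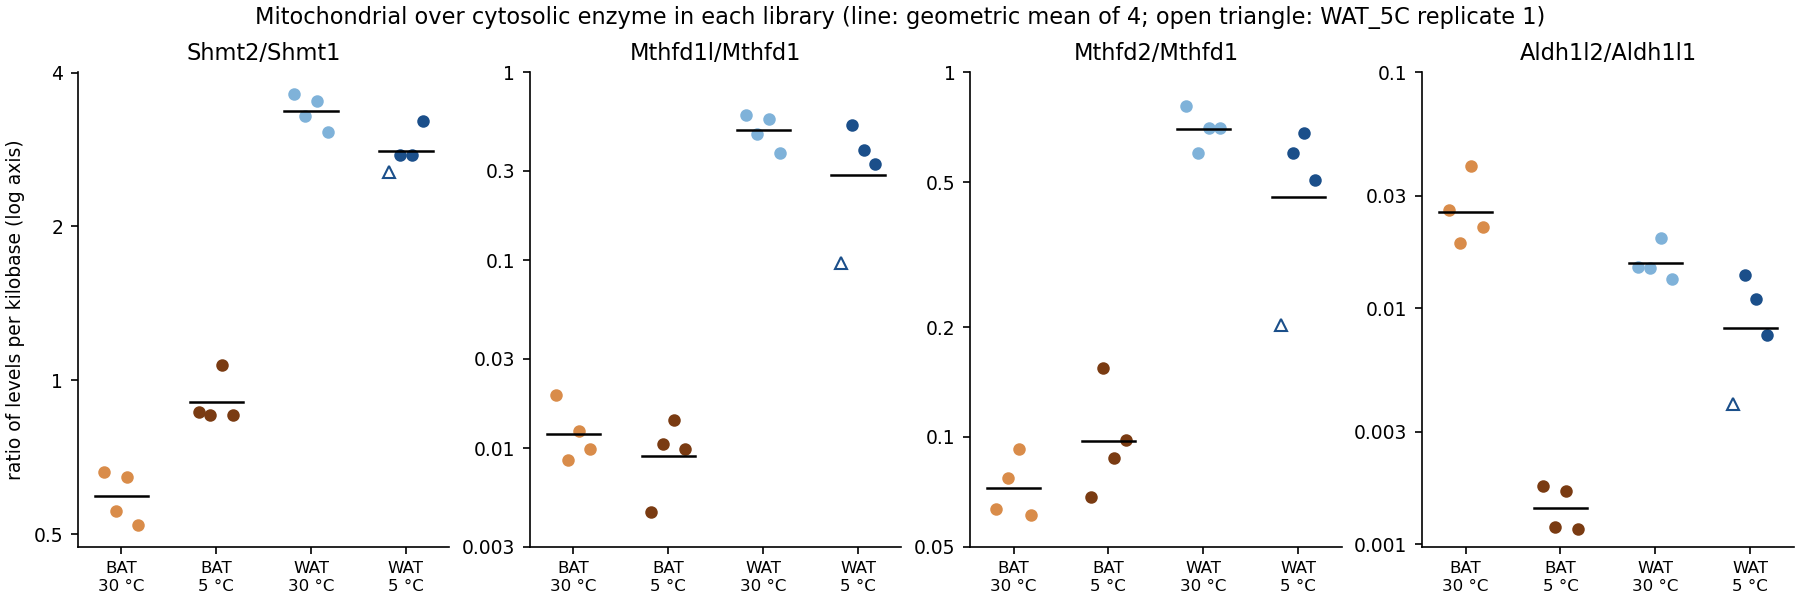
Ratio of mitochondrial to cytosolic enzyme, both per kilobase of exon, in every library on a log axis with a separate range for each pair. Lines are geometric means of 4 and the open triangle is replicate 1 of WAT at 5 °C. Shmt2 over Shmt1 lies between 0.520 and 1.07 in BAT and between 2.55 and 3.64 in WAT, and Aldh1l2 over Aldh1l1 drops in BAT at 5 °C.

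The pairs at the next step differed more widely. Mthfd1l over Mthfd1 was 0.00870 to 0.0193 per kilobase in BAT at 30 °C and 0.374 to 0.592 in WAT at 30 °C, 41.1-fold lower in BAT, and 31.1-fold lower at 5 °C, or 44.5-fold without replicate 1 of WAT. Mthfd2 over Mthfd1 was 9.63-fold lower in BAT at 30 °C and 4.65-fold lower at 5 °C, or 6.07-fold without that library. Each of these comparisons had no overlap and the smallest exact permutation p, 0.0286 with 4 against 4 libraries and 0.0571 with 4 against 3. Neither ratio separated the temperatures within a tissue, with exact permutation p of 0.457 and 0.171 in BAT and 0.143 and 0.0857 in WAT (0.286 and 0.171 without replicate 1 at 5 °C).

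For the formyl-folate dehydrogenases the widest gap was between the temperatures in BAT. Aldh1l2 over Aldh1l1 was 0.0260, 0.0188, 0.0402 and 0.0221 per kilobase in BAT at 30 °C and 0.00177, 0.00118, 0.00168 and 0.00116 at 5 °C. The groups were far apart, with an 18.0-fold lower ratio in the cold (exact permutation p = 0.0286, adjusted 0.0508). In WAT the ratio was 0.0133 to 0.0198 at 30 °C and 0.00392 to 0.0138 at 5 °C, 1.89-fold lower with overlap (exact permutation p = 0.0571, adjusted 0.0762). The lowest value was that of replicate 1, and without it the ratio was 1.48-fold lower (exact permutation p = 0.114). Between tissues the ratio was 5.77-fold lower in BAT than in WAT at 5 °C, or 7.38-fold without replicate 1, and 1.65-fold higher at 30 °C with overlap (exact permutation p = 0.0571).

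**Figure D4:**
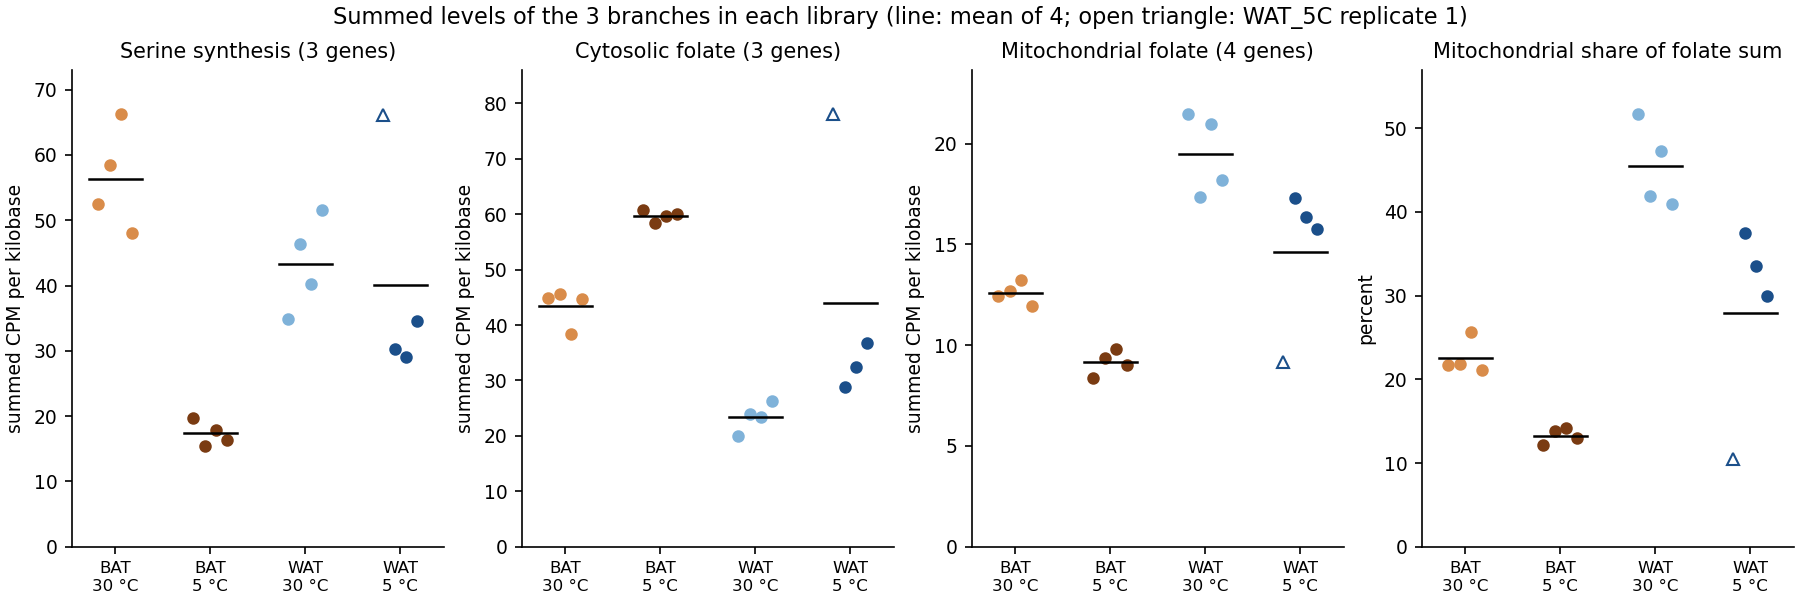
Summed level of the serine synthesis, cytosolic and mitochondrial genes in CPM per kilobase, and the mitochondrial share of the 2 folate branches in percent, in every library. Lines are means of 4 and the open triangle is replicate 1 of WAT at 5 °C. The mitochondrial share is 21.1 to 25.7% in BAT at 30 °C, 12.1 to 14.1% in BAT at 5 °C and 40.9 to 51.7% in WAT at 30 °C.

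Summed over genes per kilobase, the mitochondrial share of the folate enzymes was 22.6% ± 2.09 in BAT at 30 °C, 13.3% ± 0.896 in BAT at 5 °C and 45.4% ± 5.03 in WAT at 30 °C (SD, n = 4). In WAT at 5 °C it was 10.5% in replicate 1 and 30.0 to 37.4% in the other 3. In BAT the cytosolic sum was 43.4 ± 3.36 CPM per kilobase at 30 °C and 59.7 ± 0.943 at 5 °C. The mitochondrial sum was 12.6 ± 0.533 and 9.15 ± 0.613, most of it Shmt2. From 30 °C to 5 °C, mean Aldh1l1 went from 13.3 to 41.1, Shmt1 from 19.2 to 8.82 and Mthfd1 from 10.97 to 9.82 CPM per kilobase. Of the cytosolic genes only Aldh1l1 was thus higher in cold BAT. Shmt2 over Shmt1 was 1.53-fold higher there, so the lower mitochondrial share does not describe each pair of enzymes. The sums and shares are descriptions without a test.

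The 5 further lists, of 80 genes in all, describe the pathway around the 10 enzymes. In BAT, 8 of 19 tested genes of the other folate cycle were higher at 5 °C and 5 lower, with a median log2 fold change of 0.16 against -0.05 for all genes. The counts of these lists stand beside 29.2% of all genes called higher in BAT and 30.3% called lower. Slc25a32, the mitochondrial folate carrier, rose by 1.41 on the log2 scale used for all values here (edgeR adjusted p = 1.48e-06) and Sardh, sarcosine dehydrogenase of mitochondria, by 1.14, while Mtr, methionine synthase, fell by 1.69 (edgeR adjusted p = 1.84e-06) and Mtfmt, which formylates the mitochondrial initiator tRNA, fell by 0.36. Of the 4 glycine cleavage genes, Dld, which also serves other dehydrogenase complexes, rose by 1.13, Gcsh fell by 0.49 and Amt fell by 0.44, while Gldc did not pass (1.31, edgeR adjusted p = 0.084). Of 11 methionine and transsulfuration genes, 5 were higher and 4 lower (median 0.05), beside 29.2% and 30.3% of all genes. The 4 with the smallest adjusted p were Gnmt, glycine N-methyltransferase, which rose by 1.84, Ahcyl2, which fell by 2.02, and Mat2a, methionine adenosyltransferase, which fell by 1.103, and Ahcy, the hydrolase of S-adenosylhomocysteine, which rose by 0.31.

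Of 17 genes that transport or use serine and glycine, 7 were higher in cold BAT and 5 lower (median 0.06), the latter near the 30.3% of all genes called lower (29.2% were called higher). Sfxn1, a mitochondrial serine carrier, rose by 0.68 (edgeR adjusted p = 0.000298), Ptdss2, a phosphatidylserine synthase, by 1.12, Sdsl, serine dehydratase-like, by 0.56 and Sptlc1, a subunit of the enzyme that starts sphingolipid synthesis, by 0.47. Of 20 genes of the ATF4 programme, 9 were higher and 6 lower, with a median of 0.35, and the lower count is near the 30.3% of all genes (29.2% were called higher). Atf5, a transcription factor, rose by 1.92 (edgeR adjusted p = 7.08e-08), Gars, glycyl-tRNA synthetase, by 1.05 and Cebpg by 0.79, while Pck2, mitochondrial phosphoenolpyruvate carboxykinase, fell by 1.80 (edgeR adjusted p = 5.01e-07).

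In WAT with 8 libraries, 0 of the 76 genes of these lists that were tested passed the edgeR test, and 18 had an unadjusted p under 0.05. Over all 18975 genes tested, 3430 had an unadjusted p under 0.05, so the 18 are read beside that share. Without replicate 1 of WAT at 5 °C, where 1.84% of all genes were called higher and 0.274% lower, 3 passed, all higher: Gldc, the decarboxylase of glycine cleavage, at 1.21 (edgeR adjusted p = 0.0208), Sdsl at 1.65 (edgeR adjusted p = 0.038) and Sfxn1 at 0.68 (edgeR adjusted p = 0.0482). Sdsl and Sfxn1 thus rose in cold BAT as well as in cold WAT without that library.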

How the data were processed

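Poly(A)-selected RNA of 16 libraries in 4 groups was sequenced. The authors deposited raw counts per Ensembl gene. Trim Galore and TopHat were used, per the submitters' processing notes, which give no role. The sources used here give no counter, strand setting, build or annotation. Groups and replicate numbers came from titles and housing labels. GENCODE M21 gave symbols for 45143 of 46078 identifiers and exon lengths.

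Counts were scaled by TMM, passed through filterByExpr, with a count of 10 and a total of 15 as its minima, and tested by quasi-likelihood in edgeR 4.0.16 (R 4.3.3), with each tissue fitted apart for temperature and all 16 libraries together otherwise. The SE was obtained by dividing the size of the log2 fold change by the root of the F statistic. CPM come from the fit of 16 libraries. Ratios used counts plus 0.5 and an exact permutation test (scipy 1.17.1).

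Equal replicate numbers of different groups had residual correlations from -0.531 to 0.275, so groups were treated as unpaired. All 24 pairs of replicates were distinct beyond counting noise, with chi-square at least 19.9 per degree of freedom.

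The members and lists were chosen with earlier results of these data known. Named are all 10 members and, of each pathway list, up to 4 genes with the smallest adjusted p per tissue and at least 1 CPM in the higher group, with Gldc in BAT added after its value was seen. Members of the marker lists (10 lists) are given as sums. Alternatives were RLE scaling, library totals, no filter, DESeq2 1.42.0, 1 fit of all libraries, a replicate block, the 4 BAT libraries whose labels match, a pseudocount of 5 for ratios and each library left out.

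In simulated data made from these libraries, the BAT fit recovered 44 of 73 genes changed 1.5-fold, 58 of 61 changed 2-fold and 66 of 66 changed 4-fold, and the WAT fit 3 of 59, 26 of 67 and 70 of 74. False calls were 11 in BAT and 4 in WAT. Far fewer genes were changed than were called in the real BAT data, so recovery there may differ. Genes of low level, such as Mthfd1l in BAT, were not among those changed.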

Additional observations from a re-analysis of the deposited data

Results flagged for a closer look

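In replicate 1 of WAT at 5 °C, Aldh1l1 was at 300.9 CPM against 86.1 to 120.5 in the other 3 libraries, and Shmt2 at 19.2 CPM against 29.9 to 31.3. In replicate 1 of BAT at 30 °C, Mthfd1l was at 1.01 CPM against 0.444 to 0.486. In replicate 3 of BAT at 5 °C, the log2 count ratio of Shmt2 to Shmt1 was -0.22 against -0.55 to -0.53. Each lies far from the rest of its group of 4 by Dixon's criterion, which was applied 56 times and marks about 1 in 20 groups by chance.

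The change between 5 °C and 30 °C differed between WAT and BAT, as WAT minus BAT on the log2 scale, for Phgdh (4.69), Aldh1l2 (2.81), Psat1 (1.71), Shmt1 (1.06) and Psph (-0.66).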

How the results depend on the processing

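In BAT, the 7 genes called kept direction and call under each alternative run, and 6058 genes were called with the 4 libraries whose labels match, against 9647. The number of genes called in WAT was 12, and 82 with library totals, 25 without a filter, 1122 with DESeq2, 0 with the replicate block, 1587 in 1 fit of 16 libraries and 0 to 408 with each library left out. Without replicate 1 of WAT at 5 °C it was 438 with RLE scaling, 313 with library totals and 2379 with DESeq2. Members called higher in WAT were 0, and 1 with library totals, 2 with DESeq2, 2 in 1 fit of 16 libraries and 0 to 1 with a library left out (2 without replicate 1 in DESeq2). Members called lower were 0, and 0 to 1 with a library left out (2 without replicate 1 in DESeq2). The difference between tissues in the cold change called 4055 genes and 1 member lower, and 3221 to 6222 genes with a library left out, the highest without replicate 1 of WAT at 5 °C, with 0 to 2 members lower over the left-out libraries and 2 with DESeq2. Between tissues, library totals gave 1 member higher and 6 lower at 30 °C and 1 higher and 8 lower at 5 °C, against 3 and 3, and 3 and 5. Of all 19481 genes, library totals called 2505 higher and 12875 lower at 30 °C, and 2118 and 13882 at 5 °C. Most genes were thus called lower in BAT with that scaling. The replicate numbers were not shown to pair samples, and the replicate block (Phgdh at -5.44 in BAT) changed no member's call.

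Library totals moved the median of all genes in WAT from -0.01 to -0.27, and these values changed sign: in BAT Mthfd2 (-0.046), in WAT Mthfd1 (-0.27) and Aldh1l2 (-0.047), in the difference of cold changes Mthfd1l (0.090), between tissues at 30 °C Phgdh (-0.18), Psph (-0.63), Mthfd1 (-0.17), Shmt2 (-0.82) and Aldh1l2 (-0.089), and at 5 °C Psph (-0.032), Mthfd1 (-0.44) and Aldh1l1 (-0.54). Shmt2 at 30 °C turned to -0.044 with RLE scaling and -0.044 with DESeq2. In WAT without replicate 1, Shmt1 was 0.015, 0.022 with RLE scaling and 0.022 with DESeq2, Mthfd1 -0.13, -0.12 with RLE scaling, -0.27 with library totals and -0.12 with DESeq2, and Psat1 -0.085 with library totals. With a library left out, the log2 values that changed sign ran from -0.17 to 0.015 (Shmt1 in WAT), -0.13 to 0.10 (Mthfd1 in WAT), -0.46 to 0.13 (Mthfd1l, difference of cold changes), -0.12 to 0.088 (Aldh1l1, tissues at 30 °C) and -0.027 to 0.073 (Shmt2, tissues at 30 °C). The cause was not tested. The ratio tests cannot go below 0.0571 with a library left out or 0.125 with the block.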

Other observations

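Over the 16 libraries, the genes whose log2 CPM followed Phgdh most closely were Cdsn, corneodesmosin (Pearson r = 0.985), Apcdd1, a Wnt inhibitor (0.976), Prr5l (0.975), Sec16b (0.973) and Heph, the iron oxidase hephaestin (0.973). Cdsn was at mean levels of 84.8 CPM in BAT at 30 °C, 2.02 in BAT at 5 °C, and 43.6 in WAT at 30 °C, and Apcdd1 at 75.8, 4.37 and 66.8 CPM. Without replicate 1 of WAT at 5 °C, Cdsn, Heph and Apcdd1 were still among the 5 closest.

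Among the genes closest to Mthfd2 were Piezo2, a mechanosensitive channel (r = 0.986), B4galnt1 (0.985), Ly6d (0.985) and Hcst (0.984). Without replicate 1 of WAT at 5 °C, Piezo2 (0.990) was the one of these 4 still among the 5 closest. Piezo2 was at 0.679 CPM in BAT at 30 °C and 52.7 in WAT at 30 °C. These are descriptions over 16 libraries in 4 groups.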
